A study of Mus musculus with 7 samples.

Results

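The genes described here encode the endocytic receptors of the renal proximal tubule and the proteins that keep them working. They are Lrp2 (megalin), Cubn (cubilin), Amn (amnionless), Folr1 (folate receptor alpha), Lrpap1 (the receptor-associated protein, RAP), Dab2 (an endocytic adaptor), Clcn5 (an endosomal chloride-proton exchanger) and Ocrl (an inositol polyphosphate phosphatase). The 8 genes were taken as a list of names, and all 8 were found among the 45706 genes of the deposited tables and passed the filter on low counts, which left 15399 genes. They were measured by RNA sequencing in kidneys of 7 male Slc7a9-/- mice aged 6 months. In 3 of these mice no treatment was given (dose 0), and the other 4 received L-ergothioneine, a sulfur-containing antioxidant of the diet, in their drinking water at 16 mg/kg/day. All animals, controls included, lack Slc7a9, which encodes a subunit of the kidney's cystine carrier, so they are a model of cystinuria and no value compares this genotype with wild type. The labels give no strain, duration of treatment, litter or time of collection, and the numbered kidneys of a group are taken as separate animals; p-values measure only the spread between these samples, part of which may be technical.

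The proximal tubule takes back the proteins and vitamin carriers that pass the glomerular filter. Megalin, a giant multiligand receptor, and cubilin, a peripheral membrane protein that amnionless anchors and carries to the surface, bind albumin, vitamin D-binding protein, retinol-binding protein and many other ligands at the brush border. RAP escorts megalin through the endoplasmic reticulum and keeps ligands off it, DAB2 links the tail of megalin to clathrin, and the folate receptor is held in the membrane by a lipid anchor. Endosomes must then be acidified and their lipids remodelled before receptors return to the surface: loss of CLCN5 causes Dent disease and loss of OCRL causes Lowe syndrome, both with loss of small proteins into the urine.

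In the mouse genome (GRCm38, GENCODE M21) Lrp2 lies on chromosome 2 at 69424340 to 69586065, minus strand, and Cubn on the same chromosome at 13276338 to 13491813, also minus strand. Amn is at 111271095 to 111276426 on chromosome 12, plus strand, Dab2 at 6299788 to 6440712 on chromosome 15, plus strand, and Folr1 at 101858331 to 101870788 on chromosome 7, minus strand. Clcn5 (7153810 to 7319358, minus strand) and Ocrl (47912387 to 47965868, plus strand) are on chromosome X, and Lrpap1 is at 35091501 to 35105766 on chromosome 5, minus strand. An exon of Cubn overlaps the opposite-strand transcript Gm13270, which had 15 to 29 counts per library against at least 26692 for Cubn. The strand setting of the counting is not given in the sources used here.

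RefSeq (GRCm38.p6) gave start-site windows for 7 of the 8 genes, Folr1 being the exception. The bases before the start sites of the 3 receptor-complex genes and the first start site of Dab2 are shown, 5′ to 3′ on the gene's strand, so that genes of one receptor machinery can be compared for 2 motifs, the E-box CACGTG and the GC box GGGCGG, searched on both strands. The E-box and its reverse complement are the same letters. Capitals mark the matches, and bases annotated as exon in GENCODE were left out.
Lrp2, chr2:69586066-69586279, minus strand: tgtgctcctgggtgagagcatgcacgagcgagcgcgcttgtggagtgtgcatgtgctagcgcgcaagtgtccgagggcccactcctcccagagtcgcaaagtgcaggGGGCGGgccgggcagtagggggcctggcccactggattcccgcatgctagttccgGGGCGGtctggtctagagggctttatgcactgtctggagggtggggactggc
Cubn, chr2:13491877-13492126, minus strand: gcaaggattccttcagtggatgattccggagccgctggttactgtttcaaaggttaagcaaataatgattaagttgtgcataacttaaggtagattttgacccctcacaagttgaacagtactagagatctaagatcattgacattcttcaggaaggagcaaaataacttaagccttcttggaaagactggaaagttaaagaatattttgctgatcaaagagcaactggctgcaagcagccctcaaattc
Amn, chr12:111270846-111271094, plus strand: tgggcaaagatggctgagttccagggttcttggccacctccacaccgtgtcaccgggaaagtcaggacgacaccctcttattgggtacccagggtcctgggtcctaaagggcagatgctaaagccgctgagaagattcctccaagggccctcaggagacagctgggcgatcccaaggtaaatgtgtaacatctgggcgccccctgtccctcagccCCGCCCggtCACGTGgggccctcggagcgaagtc
Dab2, chr15:6299539-6299787, plus strand: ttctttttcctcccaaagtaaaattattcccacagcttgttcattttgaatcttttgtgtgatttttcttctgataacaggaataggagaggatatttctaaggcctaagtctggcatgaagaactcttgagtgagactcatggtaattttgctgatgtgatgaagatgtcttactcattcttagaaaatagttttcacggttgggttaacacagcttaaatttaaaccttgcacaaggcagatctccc
Over the 250 bases before each start, Lrp2 held 2 GC boxes, 143 and 88 bases upstream, Amn held an E-box at 26 bases and a GC box on the opposite strand at 35 bases, and the windows of Cubn and of the first start of Dab2 held neither motif. Lrpap1 held 5 GC boxes, Ocrl held 2 and the upstream start of Clcn5 held 1. This search covered all 250 bases, those annotated as exon included. The Ocrl boxes, at 38 and 32 bases, and the Lrpap1 boxes at 60 and 44 bases lay beyond the first base annotated as exon. Among all 32851 windows of this length 32.7% held a GC box and 6.02% an E-box. The HNF1 half-site GTTAAT was also searched and was held by 6.43% of all windows. Among the members only the downstream start of Dab2 had a match, at 65 bases, beyond the first base annotated as exon. These matches describe letters only.

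Libraries held 14843899 to 19791575 estimated counts. Short non-coding RNA took 12.2% and 16.2% of the deposited TPM (an expression value scaled by transcript length and library) in untreated kidneys 1 and 2 and 37.5% to 48.7% in the other 5 kidneys, which lowers every other gene's TPM in those 5. Slc7a9 itself had 95 to 166 counts per library, and since the disrupted stretch is not given in the labels, this does not check the genotype. The defining markers of the proximal tubule were abundant: Slc34a1, the phosphate transporter NaPi-IIa, stood at 5347 ± 578 CPM untreated (SD, n = 3) and 5034 ± 213 treated (n = 4), where CPM is the usual depth-scaled count, on library sizes adjusted by the TMM method. Since these are kidney samples of many cell types, fewer proximal tubule cells and less RNA per cell cannot be told apart in any value below.

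Levels of different genes were compared per length, on TPM recomputed after leaving out short non-coding genes (rescaled TPM). Lrp2 was the most abundant of the 8 at 839 ± 111 (SD over 7 kidneys), followed by Folr1 at 546 ± 29.4, Dab2 at 359 ± 39.9, Cubn at 274 ± 32.5, Lrpap1 at 127 ± 8.70, Amn at 96.8 ± 9.75, Clcn5 at 51.8 ± 6.82 and Ocrl at 12.02 ± 1.248. This order was the same in each of the 7 libraries. Dab2 and Cubn were the only neighbours in this order whose ranges over the 7 kidneys met (315 to 423 and 243 to 317), although within each kidney Dab2 was 1.21 to 1.44 times Cubn. The other neighbours were apart, down to 118 to 138 for Lrpap1 above 81.6 to 108 for Amn. In raw counts Lrp2 took 0.714% to 0.889% of each library and ranked 6th to 10th among all genes. On the deposited TPM the means were lower, 529 ± 120 for Lrp2, 345 ± 68.0 for Folr1, 229 ± 65.2 for Dab2, 175 ± 50.9 for Cubn, 81.4 ± 24.0 for Lrpap1, 60.9 ± 11.9 for Amn, 32.2 ± 3.95 for Clcn5 and 7.59 ± 1.79 for Ocrl, with a wider spread for all except Clcn5.

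**Figure D1:**
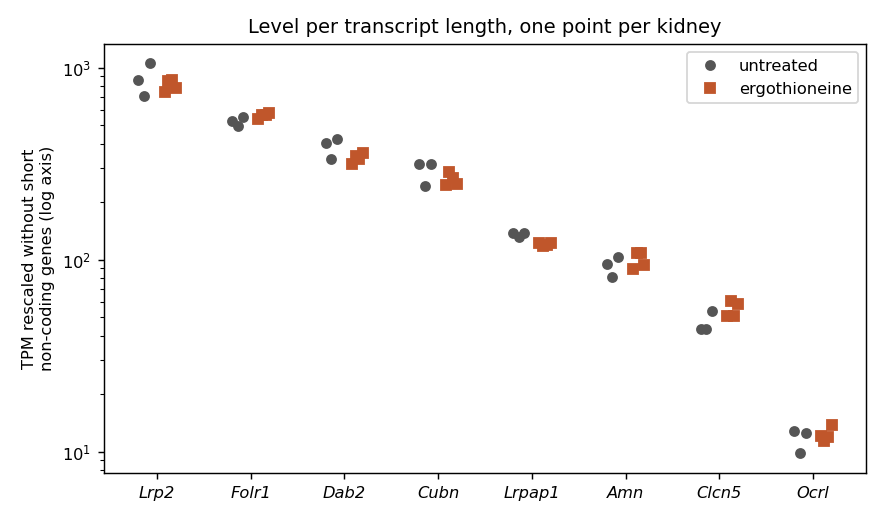
Level of the 8 genes per transcript length, as rescaled TPM on a log axis, with 1 point per kidney (circles untreated, squares ergothioneine). The genes keep one order in all 7 kidneys, from Lrp2 (mean 839) to Ocrl (mean 12.02).

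The comparison of the design asks how these genes differ with ergothioneine. None of the 8 passed the test across all genes (edgeR quasi-likelihood F test, Benjamini-Hochberg adjusted p under 0.05), where 7.16% of the 15399 genes tested were called, 3.58% higher and 3.57% lower. Point estimates were small, from -0.19 to 0.21 on the log2 scale, with 4 members lower and 4 higher and a median of -0.03 beside -0.00 for all genes. At an unadjusted p under 0.05 there were 3 of 8 members (Dab2, Clcn5 and Lrpap1), or 37.5%, beside 20.8% of all genes, and DESeq2 called 2 (Dab2 and Clcn5), beside 7.48% of the genes it tested. With limma-voom and sample weights 1 member was called (Dab2, background 7.55%), and without a filter on low counts 1 (Clcn5, background 5.91%). In 2 of the 8, or 25%, the groups did not overlap in CPM, beside 18.6% of all genes: Folr1 (higher, as in 9.46% of all genes) and Dab2 (lower, as in 9.11%).

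Among the receptors, Lrp2 had 146089, 106046 and 138128 counts in the untreated kidneys and 130834, 150973, 135812 and 133412 in the treated ones. In CPM these were 8279.6, 7106 and 8858 untreated and 7428, 7639, 7936 and 7275 treated. Untreated kidney 2 was below all treated kidneys and the other 2 untreated ones were above them, so the groups overlapped. The means were 8081 ± 893 (SD, n = 3) and 7569 ± 286 (SD, n = 4), and the log2 fold change was -0.09 ± 0.09 (SE; edgeR adjusted p = 0.605). It was -0.18 (0.23) without untreated kidney 2 and -0.02 (0.934) without untreated kidney 3. Without untreated kidneys 1 and 2, which leaves only untreated kidney 3 in its group, it was -0.22. The 95% interval of the estimate on all kidneys, not adjusted for the number of genes, ran from -17.5% to 6.29% (-0.28 to 0.09 on the log2 scale). At these counts the Poisson counting error is at most 0.307% of the value, far below the spread between kidneys.

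Cubn stood at 2261, 1789 and 1988.5 CPM in the untreated kidneys and at 1777, 1886, 1833 and 1670.4 in the treated ones. Untreated kidney 1 was the highest of the 7, and untreated kidney 2 lay within the treated range. From 2013 ± 237 CPM untreated to 1792 ± 92.2 treated the log2 fold change was -0.17 ± 0.08, with an edgeR adjusted p of 0.257 and a 95% interval from -0.34 to 0.00. Without untreated kidney 1 it was -0.07 (adjusted p = 0.715), and without untreated kidney 2 it was -0.25 (0.0797).

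Amn, whose product is required for cubilin to reach the surface, stood at 87.9, 78.0 and 85.4 CPM untreated and 84.0, 93.0, 97.7 and 82.0 treated. Treated kidneys 1 and 4 lay within the untreated range and treated kidneys 2 and 3 above it. The log2 fold change of 0.09 ± 0.07 did not pass (edgeR adjusted p = 0.532, 95% interval -0.06 to 0.24), and without treated kidney 3 it was 0.04 (0.81). As a ratio of TPM within each library, which no scaling of whole libraries can move, Cubn to Amn was 3.32, 2.98 and 3.08 untreated and 2.75, 2.66, 2.47 and 2.64 treated. All 4 treated kidneys lay below the untreated ones in this ratio, with means of 3.12 ± 0.174 (SD, n = 3) and 2.63 ± 0.114 (n = 4). The ratio of Lrp2 to Cubn ran from 2.74 to 3.32 untreated and from 2.97 to 3.22 treated, and the groups overlapped. Of 11 such ratios, picked from the possible pairs of members, 2 did not overlap between the groups. In CPM the groups of 18.6% of all genes did not overlap. The 2 ratios were Cubn to Amn and Folr1 to Dab2 (1.302, 1.49 and 1.302 untreated, 1.71, 1.63, 1.69 and 1.63 treated). Folr1 to Dab2 largely restates the CPM values, where Folr1 was higher and Dab2 lower in every treated kidney than in any untreated one. The ratios were not tested.

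Folr1, which captures filtered folate, stood at 261, 246 and 248 CPM untreated and 264, 265, 277 and 265 treated. Each treated kidney was above each untreated one, by as little as 264 against 261 CPM. The means were 252 ± 7.96 CPM (SD, n = 3) and 268 ± 6.14 (n = 4), and the SD of log2 CPM was the smallest of the 8 genes in both groups (0.05 and 0.03). The log2 fold change of 0.09 ± 0.05 had an edgeR adjusted p of 0.375 and a 95% interval from -1.58% to 15.03% (-0.02 to 0.20 on the log2 scale).

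**Figure D2:**
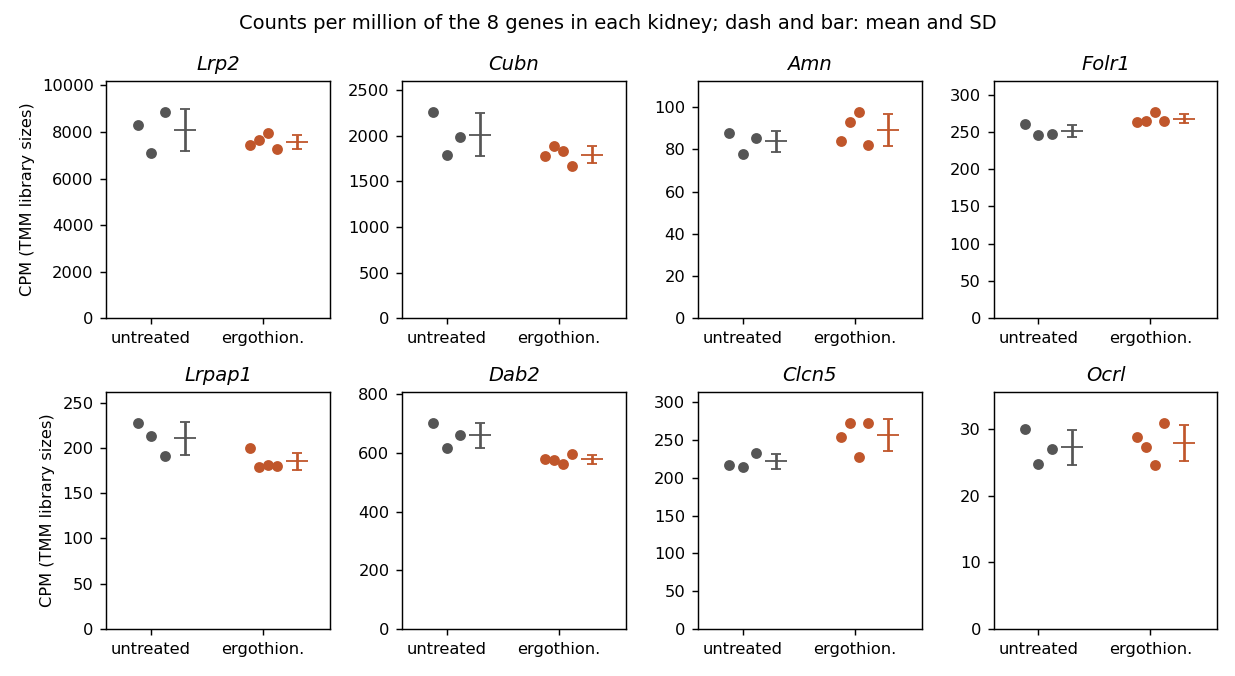
CPM on TMM library sizes of the 8 genes in each kidney, with axes from 0. Points are kidneys and the dash and bar beside them are the mean and SD (3 untreated in grey, 4 ergothioneine in orange). The groups are apart in Folr1 (higher) and Dab2 (lower) and overlap in the other 6.

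Lrpap1, the chaperone of megalin, stood at 228, 213 and 191 CPM untreated and 199.6, 179, 182 and 181 treated. Untreated kidney 3 and treated kidney 1 crossed, and the other kidneys were apart. The means were 211 ± 18.4 (SD, n = 3) and 185 ± 9.61 (n = 4), and the log2 fold change of -0.19 ± 0.06 did not pass (edgeR adjusted p = 0.0968, 95% interval -20.1% to -3.34%, or -0.32 to -0.05 in log2). It was called without untreated kidney 3 (-0.25, adjusted p = 0.0321), and was -0.12 (0.378) without untreated kidney 1. Without untreated kidneys 1 and 2 together, the libraries with little short RNA, it was -0.04. That estimate rests on untreated kidney 3 as the only one of its group. The TPM ratio of Lrp2 to Lrpap1 ran from 5.39 to 7.63 over the 7 kidneys, and the groups overlapped.

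Dab2, which couples megalin to the clathrin coat, stood at 703, 615 and 660.1 CPM untreated and 578, 574, 562.2 and 596 treated. All 4 treated kidneys were below the lowest untreated one, and the treated group was tight at 578 ± 13.96 CPM (SD, n = 4) beside 659 ± 43.9 (n = 3). The difference of -12.4% (log2 fold change -0.19 ± 0.06, 95% interval -0.32 to -0.06) had an edgeR adjusted p of 0.0748 and thus did not pass. DESeq2 (adjusted p = 0.0202), limma-voom with sample weights (0.0335) and edgeR without untreated kidney 2 (-0.24, 0.0307) called it. Without untreated kidney 1 it was -0.14 (0.285). DAB2 is also known from macrophages: of 8 macrophage markers 0 passed, with a summed level of 112 to 118 CPM untreated and 108 to 124 treated. Of their log2 estimates 7 of 8 were negative, with a median of -0.16, from -0.50 ± 0.19 for Mrc1 (edgeR adjusted p = 0.128) to 0.12 ± 0.06 for Csf1r (0.285), and their part in the Dab2 values was not tested.

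Clcn5, whose product exchanges chloride for protons in early endosomes, stood at 218, 215 and 233 CPM untreated and 255, 273, 228 and 273 treated. Treated kidney 3 lay among the untreated kidneys and the other 3 treated ones above them. The means were 222 ± 9.77 (SD, n = 3) and 257 ± 21.2 (n = 4), with a difference of 15.9% (log2 fold change 0.21 ± 0.07, 95% interval 0.07 to 0.35) and an edgeR adjusted p of 0.0636. It passed without treated kidney 3 (0.26, 0.0142), with no filter on low counts (0.22, 0.0156) and by DESeq2 (0.0493), and was 0.18 (0.189) without treated kidney 2. Intercalated cells of the collecting duct also express CLCN5, and of 5 intercalated cell markers 3 rose (Slc4a1, Slc26a4 and Atp6v1g3, by 0.59, 0.38 and 0.63 in log2) and 0 fell. Atp6v1g3 lost its call without treated kidney 1 (edgeR adjusted p = 0.0738), untreated kidney 1 (0.0995) or untreated kidney 3 (0.0709). Their summed level was 153 to 166 CPM untreated and 191 to 219 treated, and their part in the Clcn5 values was not tested.

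Ocrl, which hydrolyses endosomal phosphoinositides, was the lowest of the 8 with 371 to 569 counts per library. It stood at 30.04, 24.9 and 27.1 CPM untreated and 28.9, 27.3, 24.7 and 31.0 treated. The treated range held the whole untreated range (27.3 ± 2.60 and 28.0 ± 2.66 CPM, SD, n = 3 and 4), with a log2 fold change of 0.03 ± 0.09 (edgeR adjusted p = 0.889, 95% interval -0.16 to 0.22). Its sign turned without treated kidney 4 (-0.02) or untreated kidney 2 (-0.03). Inpp5b, the phosphatase closest to it, stood at 85.1 ± 5.18 and 82.0 ± 3.67 CPM and also did not pass (-0.05 ± 0.06, adjusted p = 0.69).

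**Figure D3:**
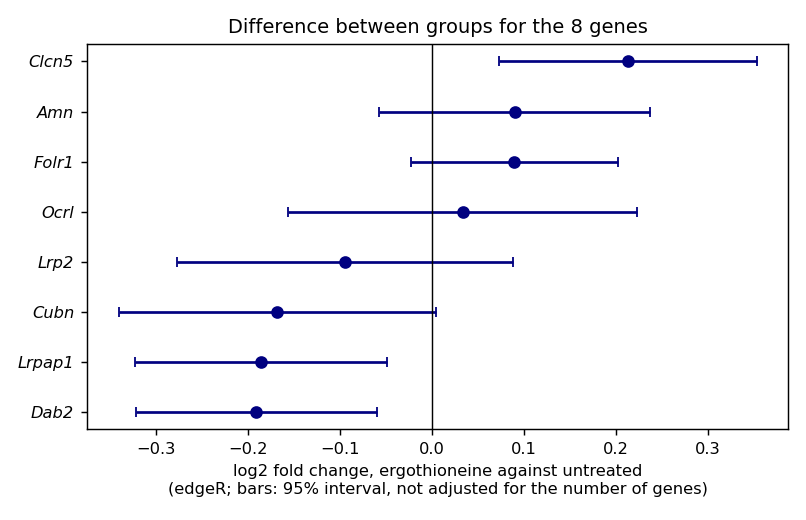
Log2 fold change of ergothioneine against untreated kidneys for the 8 genes (edgeR), with 95% intervals that are not adjusted for the number of genes tested. Estimates run from -0.19 for Dab2 to 0.21 for Clcn5, and the intervals of Dab2, Lrpap1 and Clcn5 leave out 0 although no gene passed after adjustment.

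The profile of Lrp2 over the 7 kidneys was followed most closely by Slc34a1, at a root mean square difference of 0.03 log2 CPM after subtracting each gene's mean, where the median over 5328 other protein-coding genes was 0.13. Next came Tnrc6b, Zbtb4 and Edc4, each at 0.04. For Cubn the nearest were Sall1, Cda and Napsa (each 0.03) and Chp1 (0.04), with a median of 0.15. Napsa encodes napsin A, an aspartic protease of proximal tubule lysosomes, and Sall1 a transcription factor of kidney development. None of these 8 genes passed the test between the groups (edgeR adjusted p of 0.133 to 0.752). Within the 8 members the nearest to Lrp2 was Cubn (0.09), to Cubn Dab2 (0.08), and to Amn Folr1 (0.07), while Clcn5 and Ocrl were nearest to Folr1 at 0.12 each.

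In the pathway around the receptors, 9 lists held 233 genes, of which 224 were tested. Of these 16 were called higher (7.14%, beside 3.58% of all genes) and 8 lower (3.57%, beside 3.57%), and their median log2 fold change was 0.03. Of these 24 calls 5 held without each single kidney, those of Ppard, Pi4k2a, Sort1, Clcn3 and Ehd1. On rescaled TPM 2 genes of the lists were called higher and 1 lower, and of those 5 genes Ppard was called (limma adjusted p = 0.000545) and Pi4k2a (0.0645), Ehd1 (0.0806), Sort1 (0.23) and Clcn3 (0.286) were not. The number higher fell to 8, 9, 8 and 10 without treated kidney 1, treated kidney 2, untreated kidney 1 and untreated kidney 2, and the number lower to 4, 5, 2 and 5 without treated kidney 2, treated kidney 4, untreated kidney 1 and untreated kidney 2. Leaving out untreated kidneys 1 and 2 together leaves a single untreated kidney, so the calls of that fit are not given.

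Of 32 clathrin, AP2 and adaptor genes 0 rose and 1 fell, and the list median was 0.03. The one called was Fcho2, a nucleator of coated pits (160 ± 8.82 to 136 ± 4.96 CPM, in log2 -0.23 ± 0.06, edgeR adjusted p = 0.0214), and it lost its call without treated kidney 2 or 4 or untreated kidney 1 or 2 (up to 0.0773). The clathrin heavy chain gene Cltc was at 0.11 ± 0.06 (adjusted p = 0.298) and the AP2 subunit gene Ap2m1 at -0.01 ± 0.05 (0.956).

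Among 36 genes of endosome sorting and recycling 2 rose and 0 fell, with a median of 0.03. Ehd1, a scission protein of recycling endosomes, rose from 110.4 ± 0.726 to 131 ± 6.09 CPM (a log2 difference of 0.25 ± 0.06, edgeR adjusted p = 0.0108). Rab11fip5, an effector of RAB11, rose by 0.25 ± 0.07 (0.0269) and lost its call without treated kidney 1 or 2 or untreated kidney 1 or 2 (up to 0.133). Rab11a itself stood at 0.02 ± 0.07 (0.911).

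Of 17 tested phosphoinositide enzymes and OCRL partners 1 rose and 1 fell, with a median of 0.04. Pi4k2a, an endosomal lipid kinase, rose from 41.0, 39.5 and 42.4 CPM untreated to 56.6, 61.4, 50.8 and 62.8 treated (log2 fold change 0.50 ± 0.08, edgeR adjusted p = 0.000519). Pi4ka, the plasma membrane kinase of the same lipid, fell by 0.26 ± 0.07 on the log2 scale (0.0454). It lost its call without treated kidneys 1, 2 or 4 or untreated kidneys 1 or 3 (up to 0.183).

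Endosomal chloride and proton transport genes, the surroundings of Clcn5, held 4 risen and 1 fallen of 26, with a median of 0.09. The one that fell was Clcn3, a relative of Clcn5 that also exchanges chloride for protons in endosomes, at 295, 292 and 305 CPM untreated and 252, 254, 250.04 and 251 treated. All 4 treated kidneys were below all untreated ones, and the log2 fold change was -0.24 ± 0.05 (edgeR adjusted p = 0.00801, up to 0.0347 without single kidneys). The estimates of Clcn3 and Clcn5 thus had opposite signs, and Clcn5 did not pass. The risen genes encode parts of the vacuolar proton pump: Atp6v1f (0.32 ± 0.07), Atp6v0b (0.30 ± 0.08), Atp6ap1 (0.23 ± 0.05) and Atp6v0c, the 1 called gene of this list below the 3 largest (0.20 ± 0.05). Without untreated kidney 1 all 4 lost their calls (adjusted p of 0.0561, 0.106, 0.0566 and 0.0731). Atp6v0b lost it also without treated kidneys 2 or 3 or untreated kidney 2 (up to 0.0884), and Atp6v0c without any kidney except untreated kidney 3 (up to 0.1). The pump is abundant in intercalated cells, whose markers were higher as given above, and the part of those cells was not tested.

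Of 28 other endocytic and sorting receptors 3 rose and 1 fell, with a median of -0.05. Sort1, the sorting receptor sortilin, rose by 0.30 ± 0.06 on the log2 scale (edgeR adjusted p = 0.00781), and Cd320, the transcobalamin receptor, by 0.35 ± 0.10 (0.0497), a call lost without any single kidney (0.0726 to 0.159). Pigr, which carries IgA across epithelia, fell from 368 ± 37.6 to 231 ± 38.0 CPM (-0.67 ± 0.14, 0.0298) and lost its call without treated kidney 3 or any untreated one (up to 0.096). Lrp1, a large relative of megalin, was at -0.15 ± 0.08 (0.325), and Fcgrt, the neonatal Fc receptor that recycles albumin and IgG, at -0.15 ± 0.07 (0.22). Like Lrp2, neither passed.

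Of 26 tested genes for ligands of megalin and cubilin 0 rose and 1 fell, with a median of 0.03. This was B2m (180 ± 7.45 to 138 ± 18.8 CPM, in log2 -0.38 ± 0.09, edgeR adjusted p = 0.0332), and the call was lost without treated kidneys 1 or 3 or any untreated one (up to 0.155). Rbp4, for retinol-binding protein, had at most 23 counts in a library (0.63 ± 0.55, 0.586). Filtered ligands come from blood, so kidney RNA does not measure their load.

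Among 24 genes that handle vitamin D, cobalamin, folate and retinol 4 rose and 0 fell, with a median of 0.07. Mtr, methionine synthase, rose by 0.27 ± 0.07 on the log2 scale, and Fpgs, which retains folate in cells, by 0.27 ± 0.07 (edgeR adjusted p of 0.0282 for each). The vitamin D receptor gene Vdr, outside the rule for named genes and picked after its values were seen, rose from 305 ± 19.3 to 364 ± 26.2 CPM (0.26 ± 0.07, 0.025). Fpgs lost its call without treated kidneys 1 or 3 or untreated kidneys 1 or 2, Mtr without any except treated kidney 3, and Vdr without treated kidney 1 or untreated kidneys 2 or 3 (up to 0.108, 0.1 and 0.105). On rescaled TPM the Fpgs difference was 0.15 (limma adjusted p = 0.635). Cyp27b1, the enzyme that activates vitamin D, spread widely at 1.47, 3.89 and 6.48 CPM untreated and 4.77, 6.88, 3.74 and 4.96 treated (adjusted p = 0.726).

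**Figure D4:**
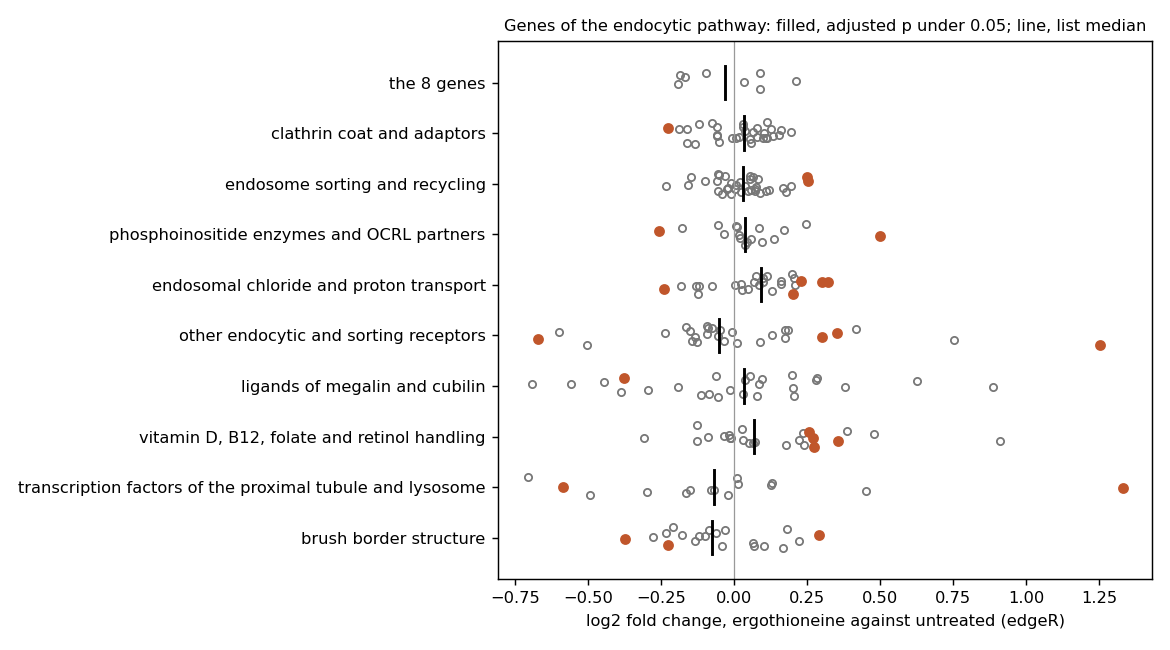
Log2 fold change (edgeR) of each tested gene among the 8 and the 9 lists around them. Filled points passed at an adjusted p under 0.05, open points did not, and the line is the list median. None of the 8 genes passed, and list medians lie between -0.07 and 0.09.

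Of 15 tested transcription factors of the proximal tubule and lysosome 1 rose and 1 fell, with a median of -0.07. Ppard rose from 17.5, 15.3 and 16.5 CPM to 45.3, 42.0, 34.6 and 43.7 (a log2 difference of 1.33 ± 0.10, edgeR adjusted p = 1.89e-07), and Ppara fell by 0.58 ± 0.11 on the log2 scale (0.0128), a call lost without untreated kidney 1 (0.0504). On rescaled TPM the Ppara difference was -0.32 (limma adjusted p = 0.451). Both encode nuclear receptors that sense fatty acids. Hnf4a, a factor of proximal tubule identity, stood at -0.07 ± 0.06 (0.611).

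Of 20 tested brush border genes 1 rose and 2 fell, with a median of -0.07. The peptidase genes Ace and Enpep fell by 0.37 ± 0.09 and 0.22 ± 0.06 on the log2 scale (edgeR adjusted p = 0.0219 and 0.0284), and Espn, an actin-bundling protein gene, rose by 0.29 ± 0.08 (0.0365). Ace lost its call without treated kidneys 2, 3 or 4 or untreated kidneys 1 or 2, Enpep without treated kidneys 2 or 4 or untreated kidneys 1 or 2, and Espn without treated kidneys 1, 2 or 3 or untreated kidneys 2 or 3 (up to 0.0678, 0.1 and 0.111).

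Markers of cell types gave the setting of these values. For segments S1 and S2 of the proximal tubule the 12 markers summed to 17114 to 19240.4 CPM untreated and 17161 to 18197 treated, with 1 risen (Gatm) and 2 fallen (Slc13a3 and Slc17a3). Of their log2 estimates 9 were negative and 3 positive, with a median of -0.06. Slc5a2, the glucose transporter SGLT2, was at 0.20 ± 0.06 (edgeR adjusted p = 0.0574), Slc5a12 at -0.02 ± 0.06 (0.921) and Slc34a1 at -0.09 ± 0.08 (0.628). For segment S3 the 9 markers summed to 8404 to 9778 CPM untreated and 6462 to 7511 treated, with 0 risen and 3 fallen: Slc7a13 from 921 ± 124 to 625 ± 51.0 CPM (-0.56 ± 0.09, 0.000967), Cyp2e1 (-0.75) and Slc27a2 (-0.29). The S3 estimates were not all of one sign: 6 were negative and 3 positive, with a median of -0.16. Cyp2e1 lost its call without untreated kidney 3 (0.0775) and Slc27a2 without treated kidneys 1, 2 or 4 or untreated kidneys 1 or 3 (up to 0.186). The S1 and S2 calls were also unsteady: Slc13a3 missed without treated kidney 1 or untreated kidneys 1 or 3 (up to 0.0835), Slc17a3 without any kidney except treated kidney 3 (up to 0.17) and Gatm without any except untreated kidney 1 (up to 0.116). Distal convoluted tubule markers (0 of 4 called) summed to 1106 to 1210.2 CPM untreated and 1338 to 1557 treated, thick ascending limb markers (1 of 5 higher, Slc12a1) to 3887 to 4284 and 4303 to 4981, and collecting duct principal cell markers (0 of 6) to 237 to 258.1 and 257.98 to 319. Podocyte markers (1 of 7 higher) summed to 432 to 490.1 and 469 to 540.01, endothelial markers (0 of 7) to 479 to 532 and 484 to 517, and fibroblast and pericyte markers (0 of 7) to 177 to 220.1 and 209 to 229. Slc12a1 lost its call without treated kidneys 1 or 2 or untreated kidney 3 (up to 0.0674). Of 6 lymphocyte markers 1 was tested and did not pass, with sums of at most 2.75 CPM untreated and 3.44 treated. All 5 tested adipocyte markers (Adipoq, Plin1, Cidec, Cidea and Ucp1) fell, with sums of 29.6 to 43.99 CPM untreated and 0.681 to 4.62 treated. How far such shifts in makeup enter the member values was not tested.

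On deposited TPM without rescaling all 8 members were lower in treated kidneys, from -0.13 for Clcn5 to -0.56 for Dab2 on the log2(TPM + 1) scale, so Amn, Folr1, Clcn5 and Ocrl changed sign (-0.28, -0.27, -0.13 and -0.28). On that scale the median of all genes lay at -0.31, and 54 genes were called higher and 1484 lower. On rescaled TPM the median was 0.00 and the 8 members returned to the signs of the counts, from -0.19 for Dab2 to 0.24 for Clcn5. None of the 8 passed on either scale (limma, adjusted p of 0.0644 to 0.585 and 0.313 to 0.888).

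**Figure D5:**
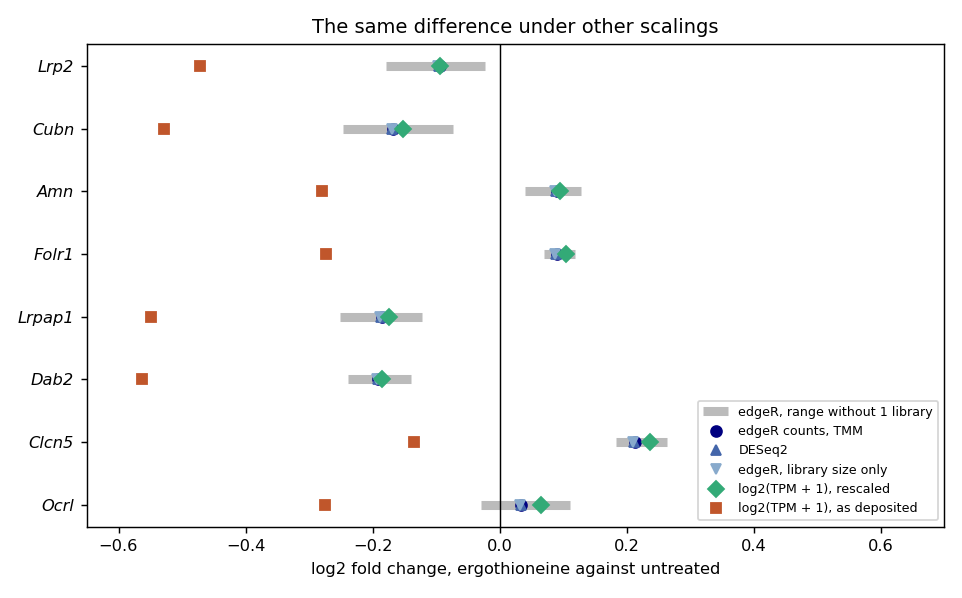
Log2 fold change of the 8 genes under 5 fits (symbols) and the range when each kidney is left out in turn (grey bar, edgeR). Deposited log2(TPM + 1) values (squares) lie 0.27 or more below 0 for all except Clcn5 (-0.13), while rescaled TPM and the count fits lie close together.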

How the data were processed

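Stranded libraries were prepared from rRNA-depleted kidney RNA, per the labels' protocols. Per the submitters' processing notes, the tools included STAR 2.7.10a, RSEM 1.3.1, Salmon 1.10.1 and DESeq2, on GRCm38, with no role stated. Expected counts and TPM (values scaled by length and library) were deposited by the authors for 45706 Ensembl genes, of which 45143 had a GENCODE M21 symbol. The deposited estimated counts were rounded to whole numbers, 3.61% not being whole. Library totals ran from 14843899 to 19791575.

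Counts were filtered by filterByExpr, scaled by TMM and compared by the robust quasi-likelihood F test of edgeR 4.0.16 (R 4.3.3, Benjamini-Hochberg over 15399 genes). Standard errors are the log2 fold change over the square root of F. TPM was tested with limma 3.58.1 on log2(TPM + 1) or + 0.1. DESeq2 1.42.0, limma-voom, other scalings, filters and thresholds, left-out kidneys and 2 blocks were alternatives. The edgeR fit was also run on simulated counts drawn with means and dispersions estimated from these libraries. Such counts cannot show whether the fit suits the real data. Short non-coding genes are those with a median transcript under 400 nt that are not protein-coding. Libraries of a group differed by 7.89 to 26.9 times sampling noise (chi-square per degree of freedom), so none was a copy.

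Named genes are the 8 members, 16 genes named in every case, up to 3 called genes per list and direction, and the 4 genes nearest to Lrp2 and to Cubn in profile (mean log2 CPM of at least 5). Vdr, Atp6v0c and the cell type markers named beside Slc5a2, Slc5a12, Slc34a1 and Slc7a13 were picked after their values were seen. The members, the lists and the tests were chosen with earlier results of these data known. Some genes that this rule or the lists hold are counted with their lists but not reported here by name.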

Additional observations from a re-analysis of the deposited data

Results flagged for a closer look

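In the 4 treated kidneys, 1 kidney stood apart from the other 3 in 3 of the 45 named genes examined, by Dixon's gap test at the 95% level, which chance passes in about 1 in 20 groups. Folr1 was highest in treated kidney 3 at 277 CPM, where the next was 265. Lrpap1 was highest in treated kidney 1 at 199.6 CPM beside 182, and this is the kidney that overlaps the untreated group. Slc5a2, a marker of the early proximal tubule, was highest in treated kidney 2 at 369 CPM beside 344.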

How the results depend on the processing

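The 0 higher and 0 lower members became 1 higher and 1 lower with DESeq2, 1 higher without a filter, 1 lower with limma-voom with sample weights, and 1 higher and 2 lower at a threshold of 0.1, which 11.3% of all genes passed. Leaving out each kidney gave 0 to 1 higher and 0 to 1 lower. With the replicate number as a block (replicate block) 0 members were called, 396 genes were higher and 413 lower, and the pathway lists had 11 higher and 5 lower. Deviations of same-numbered kidneys correlated at 0.03, -0.07 and 0.00, and those of differently numbered kidneys at -0.07 to 0.06. With so few kidneys these values cannot show whether the numbers pair animals.

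For all genes (552 higher, 550 lower) the counts were 53 and 1424 on log2(TPM + 0.1), 54 and 1484 on log2(TPM + 1), 135 and 145 on rescaled TPM, 249 and 307 without untreated kidneys 1 and 2, 242 and 239 at a threshold of 0.01, 873 and 868 at 0.1, and 350 to 514 and 337 to 589 without each kidney. The pathway lists (16 higher, 8 lower) gave 16 and 15 with DESeq2, 2 and 20 on both TPM scales, and 2 and 1 on rescaled TPM. They gave 4 and 1 at 0.01, 23 and 16 at 0.1, and 8 to 14 and 2 to 9 without each kidney. A block by the number in the library name, 44 to 50 or 14 to 23 (library-number block), gave 9 and 2. The labels give this number only as part of that name. With the library-number block 0 members were called. Lrpap1 was then at -0.11 (edgeR adjusted p = 0.345), Dab2 at -0.19 (0.147) and Clcn5 at 0.19 (0.165), all further from the threshold than without a block.

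Mean member levels over 7 kidneys moved from deposited to rescaled TPM to 839 for Lrp2, 274 for Cubn, 96.8 for Amn, 359 for Dab2, 546 for Folr1, 51.8 for Clcn5, 12.02 for Ocrl and 127 for Lrpap1, which follows from dividing by a smaller total.

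Signs turned on log2(TPM + 0.1) and log2(TPM + 1), in that order, for Amn (-0.28, -0.28), Clcn5 (-0.14, -0.13), Folr1 (-0.27, -0.27), Ocrl (-0.30, -0.28), Atp6ap1 (-0.14, -0.14), Atp6v0b (-0.10, -0.10), Atp6v1f (-0.073, -0.073), Cltc (-0.25, -0.25), Ehd1 (-0.0047, -0.0050), Espn (-0.057, -0.055), Fpgs (-0.23, -0.22), Mtr (-0.092, -0.084), Rab11a (-0.26, -0.26), Rab11fip5 (-0.11, -0.11), Slc5a2 (-0.15, -0.15) and Sort1 (-0.075, -0.071), where the median gene lay at -0.37 and -0.31. Ocrl turned also with the replicate block (-0.017), and its values without each kidney ran from -0.030 to 0.11. Those of Rab11a ran from -0.038 to 0.11, of Ap2m1 from -0.040 to 0.034, of Slc5a12 from -0.061 to 0.059 and of Cyp27b1 from -0.021 to 0.96. Ap2m1 turned positive with the library-number block (0.0021), without a filter (0.0015) and without untreated kidneys 1 and 2 (0.060). Slc5a12 turned with the library-number block (0.0071) and without those kidneys (0.074), and Cyp27b1 (-0.34) and Rbp4 (-0.057) turned without them. Leaving out those kidneys leaves only untreated kidney 3 in its group. The cause of these turns was not tested. With 3 and 4 kidneys, the 95% intervals above show how precise each estimate was, without adjustment for the number of genes. They do not give the smallest difference that the test could call.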
